A study of Mus musculus with 9 samples.

Results

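Alas2, Slc4a1, Kel, Klf1 and Hemgn are genes of developing red blood cells, and they were followed here as a readout of the blood cells held in cultured fetal mouse ovaries. The 5 genes were taken by symbol from the 23420 genes of the count tables, and all 5 were found and passed the filter on low counts. Wild-type ovaries of the CD1 strain, taken at embryonic day 16, were kept for 24 hours on culture inserts in a phenol red-free medium with insulin, transferrin, selenium and linoleic acid. They received recombinant human BMP2 at 50 ng/ml, estradiol-17β (E2) at 3.67 µM, or vehicle. BMP2 is a signalling ligand of the TGFβ family, and E2 is an oestrogen. Each group had 3 libraries of total RNA from whole ovaries, and the vehicle libraries serve both treatments. Gene counts per library were 33360565 to 34320077 with BMP2, 30418674 to 31778161 with E2 and 30860223 to 34253992 with vehicle. Nothing in the labels tells whether libraries of 1 group were grown apart, so each p-value covers the spread among these libraries, part or all of which may be technical. Genes of the ovary were present: Foxl2, Amhr2, Ddx4 and Dazl had group means of 56.5 to 375 CPM (counts scaled to a common library size, with TMM factors).

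Red cells start as nucleated precursors in the yolk sac and later in the fetal liver. As they mature they fill with haemoglobin, build a spectrin skeleton under a membrane rich in transport and blood group proteins, and at last lose the nucleus and then the remaining RNA. Primitive cells from the yolk sac carry embryonic globins such as Hbb-y, and definitive cells from the fetal liver carry adult globins. ALAS2 catalyses the first step of haem synthesis in erythroid mitochondria and sets its pace. SLC4A1, or band 3, exchanges chloride for bicarbonate across the red cell membrane and anchors the skeleton. KEL is a membrane endopeptidase that carries the Kell blood group antigens in humans and is joined to XK. KLF1 is a zinc finger transcription factor that drives adult β-globin and many other red cell genes. Hemogen, the product of Hemgn, is a nuclear protein of blood-forming cells.

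Positions are from GENCODE vM21 on GRCm38 (mm10, the build in the submitters' processing notes). All 5 are protein-coding genes. On the plus strand, Alas2 lies on chromosome X from 150547375 to 150570638 and Klf1 on chromosome 8 from 84901928 to 84905291. On the minus strand, Slc4a1 lies on chromosome 11 from 102348824 to 102366203, Kel on chromosome 6 from 41686330 to 41704339 and Hemgn on chromosome 4 from 46393989 to 46413506. Exons of Apex2, a DNA repair gene on the opposite strand, cover 12.9% of the exon bases of Alas2. The library kit does not mark strand, so reads from this stretch cannot be told apart. Apex2 itself did not pass the test, with log2 fold changes of -0.079 with BMP2 and -0.025 with E2 against vehicle (edgeR, adjusted p = 0.590 and 0.850).

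GATA1, a leading transcription factor of red cell precursors, is known to bind DNA with the core GATAA, and KLF1 binds sites of the kind CCNCNCCC. RefSeq promoter windows (GRCm38.p6, 250 bases before to 50 after a gene's start) were searched for both motifs on both strands, to show which of these letters the 5 genes share. A window was found for 4 of the 5 genes, all but Slc4a1. GATAA occurred 1 time in Alas2, 2 times in Kel, 1 time in Klf1 and 2 times in Hemgn, and at least 1 time in 25.4% of all 32851 windows. CCNCNCCC occurred 4 times in Alas2 and 4 times in Hemgn, was not found in Kel or Klf1, and occurred in 49.5% of all windows. Matches of CCNCNCCC were counted also where they overlap each other, and the 4 in Hemgn all overlap within an unbroken run of G. Shown are the stretches before the GENCODE start of the 3 genes with GATAA there, 5′ to 3′ along the gene, with GATAA, or TTATC where it is on the other strand, in capitals. They are chrX:150547167-150547374 (plus strand), chr6:41704340-41704575 (minus strand) and chr8:84901732-84901927 (plus strand). For Hemgn, whose RefSeq start lies inside the GENCODE gene, no stretch is shown. A match describes the letters and is no measured binding site.
Alas2: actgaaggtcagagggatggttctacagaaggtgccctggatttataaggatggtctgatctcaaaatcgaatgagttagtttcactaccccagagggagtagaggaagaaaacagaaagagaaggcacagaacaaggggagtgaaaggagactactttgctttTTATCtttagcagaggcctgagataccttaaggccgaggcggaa
Kel: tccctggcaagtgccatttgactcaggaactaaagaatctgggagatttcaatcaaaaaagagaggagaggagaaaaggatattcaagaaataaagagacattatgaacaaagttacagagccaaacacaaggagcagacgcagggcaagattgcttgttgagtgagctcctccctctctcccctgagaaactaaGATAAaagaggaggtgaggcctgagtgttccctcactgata
Klf1: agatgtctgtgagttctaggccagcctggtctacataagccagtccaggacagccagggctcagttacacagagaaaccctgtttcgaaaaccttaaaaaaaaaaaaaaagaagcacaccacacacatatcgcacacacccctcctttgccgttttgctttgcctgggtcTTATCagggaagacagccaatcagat

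Alas2 and Slc4a1 were the most abundant of the 5 genes, and Kel, Klf1 and Hemgn were rare. Over the 9 libraries the raw counts were 288 to 450 for Alas2, 169 to 384 for Slc4a1, 22 to 58 for Kel, 26 to 55 for Klf1 and 26 to 84 for Hemgn. Counting error alone gives a coefficient of variation of 5.85% for Alas2 and 20.3% for Kel with vehicle, so the fold changes of the 3 rare genes are less precise. Per exon length, Alas2 had levels of 4.12 ± 0.254 CPM per kb with BMP2, 5.56 ± 0.356 with E2 and 3.76 ± 0.201 with vehicle (mean ± SD, n = 3 each). Slc4a1 followed, with levels of 1.73 ± 0.109 CPM per kb with BMP2, 2.33 ± 0.172 with E2 and 1.26 ± 0.137 with vehicle. By mean level per kb the order was then Klf1, Hemgn and Kel in every group. Klf1 and Hemgn overlapped between libraries in each group, and the other neighbours in this order did not. Beta-s, the older symbol of the adult β-globin gene Hbb-bs, stood far above them, at 115 ± 3.03 CPM per kb with BMP2, 139.7 ± 1.49 with E2 and 119.5 ± 3.62 with vehicle.

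**Figure D1:**
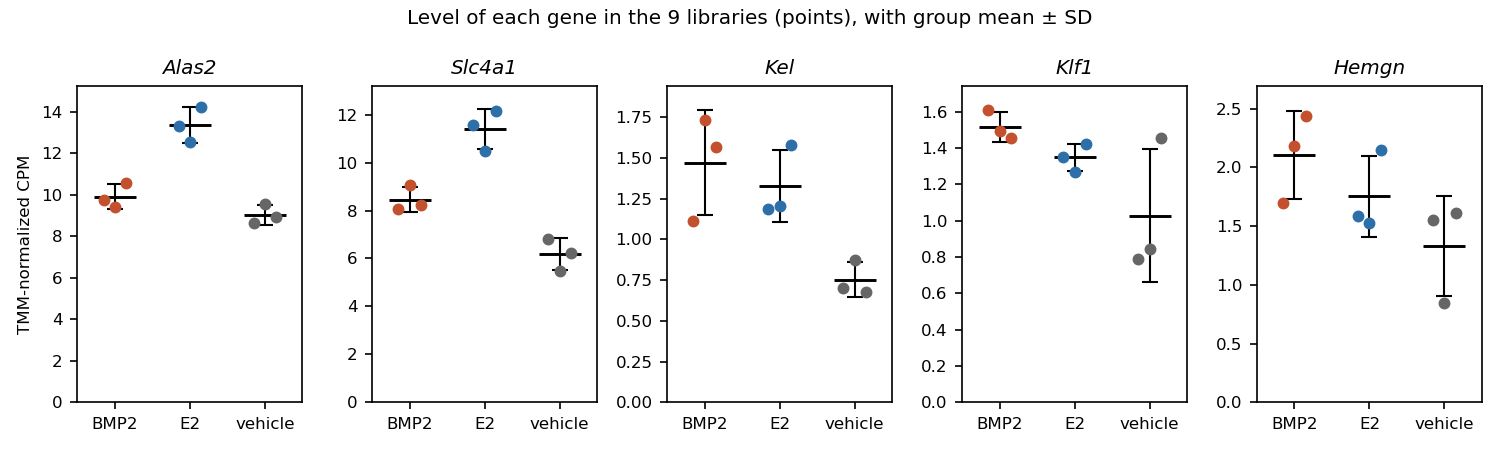
TMM-normalized CPM of the 5 genes (y axes, from 0) in the 3 libraries each of BMP2, E2 and vehicle (points), with the group mean and SD as bars. For Slc4a1 and Kel all BMP2 and all E2 libraries lie above all vehicle libraries, for Alas2 only the E2 libraries do, and for Klf1 1 vehicle library at 1.45 CPM lies above the other vehicle libraries.

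The first question is how red cell transcripts of the ovary stood after a day with BMP2. Slc4a1, Kel and Hemgn rose with BMP2 against vehicle, by 1.37-fold, 1.95-fold and 1.57-fold, and Alas2 and Klf1 did not pass the test. Thus 3 of the 5 genes were called higher (edgeR quasi-likelihood test, adjusted p under 0.05). Over all genes tested, 6.84% were called higher, 6.85% lower and 13.7% in either direction. The number called lower was 0 by edgeR, by DESeq2 and at an unadjusted p under 0.05. In RNA of whole ovaries, a change in the number of red cells and a change in RNA per cell cannot be told apart. Libraries of the 2 groups did not overlap for 4 of the 5, all higher with BMP2, where 14.1% of all genes tested stood wholly above, 14% wholly below and 28% apart in either direction. Klf1 is among these only by a near tie, as its lowest BMP2 library and highest vehicle library were both at 1.45 CPM.

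Slc4a1 had 8.08, 9.07 and 8.22 CPM with BMP2, against 6.81, 5.48 and 6.21 CPM with vehicle. Every BMP2 library was above every vehicle library. For Slc4a1 the log2 fold change was 0.45 ± 0.089 (SE, edgeR, adjusted p = 4.6e-05). Kel had 1.11, 1.73 and 1.57 CPM with BMP2, against 0.702, 0.875 and 0.680 CPM with vehicle. These levels rest on 150 counts over the BMP2 libraries and 73 over the vehicle libraries, and the groups did not overlap. For Kel the log2 fold change was 0.97 ± 0.23 (edgeR, adjusted p = 0.00128).

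Of the regulators, Hemgn had 1.70, 2.18 and 2.44 CPM with BMP2, against 1.55, 0.843 and 1.61 CPM with vehicle. Vehicle replicate 2 was low, and the other vehicle libraries lay just under the lowest BMP2 library. The log2 fold change of Hemgn was 0.65 ± 0.19 (edgeR, adjusted p = 0.0112). It did not pass with DESeq2 (adjusted p = 0.0812), without vehicle replicate 2 (log2 fold change 0.42, adjusted p = 0.177) or without BMP2 replicate 3 (0.53, adjusted p = 0.113). Klf1 had 1.61, 1.49 and 1.45 CPM with BMP2, against 0.790, 0.843 and 1.45 CPM with vehicle. Vehicle replicate 3 was level with the lowest BMP2 library and the other vehicle libraries were well below. The log2 fold change of Klf1 was 0.56 ± 0.22 and did not pass (edgeR, adjusted p = 0.0691), but it was 0.89 without vehicle replicate 3 and passed (adjusted p = 0.00828).

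Alas2, the haem enzyme gene, had 9.72, 9.39 and 10.6 CPM with BMP2, against 8.63, 9.56 and 8.90 CPM with vehicle. The groups overlapped through vehicle replicate 2. The log2 fold change was 0.13 ± 0.078 (edgeR, adjusted p = 0.281), with an unadjusted 95% interval of -0.021 to 0.29.

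The second question is the same for E2. Slc4a1, Kel and Alas2 rose with E2 against vehicle, by 1.84-fold, 1.76-fold and 1.48-fold, and Klf1 and Hemgn did not pass. Again 3 of the 5 genes were called higher. Over all genes tested, 15.8% were called higher, 16.5% lower and 32.3% in either direction. The number called lower was again 0 by edgeR, by DESeq2 and at an unadjusted p under 0.05. Libraries did not overlap for 3 of the 5, all higher with E2, where 20.4% of all genes tested stood wholly above, 20.9% wholly below and 41.2% apart in either direction. Because both treatments are set against the same vehicle libraries, a high or low vehicle library enters each comparison.

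Alas2 had 13.3, 12.5 and 14.2 CPM with E2, against 8.63, 9.56 and 8.90 CPM with vehicle. All E2 libraries were above the vehicle libraries. Alas2 had a log2 fold change of 0.57 ± 0.076 (edgeR, adjusted p = 1.4e-10). Slc4a1 had 11.5, 10.5 and 12.1 CPM with E2, against 6.81, 5.48 and 6.21 CPM with vehicle. The groups stood well apart, and the log2 fold change of Slc4a1 was 0.88 ± 0.086 (edgeR, adjusted p = 3.4e-17). Kel had 1.19, 1.21 and 1.58 CPM with E2, against 0.702, 0.875 and 0.680 CPM with vehicle. The groups did not overlap, and E2 replicate 3 was the highest. The log2 fold change of Kel was 0.82 ± 0.24 (edgeR, adjusted p = 0.00467), a call lost without E2 replicate 3 (0.67, adjusted p = 0.0582).

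Klf1 had 1.35, 1.27 and 1.42 CPM with E2, against 0.790, 0.843 and 1.45 CPM with vehicle. Vehicle replicate 3 was above every E2 library. Klf1 had a log2 fold change of 0.39 ± 0.23 (edgeR, adjusted p = 0.188), but 0.72 without vehicle replicate 3, which passed (adjusted p = 0.0268). Hemgn had 1.58, 1.52 and 2.15 CPM with E2, against 1.55, 0.843 and 1.61 CPM with vehicle. The groups overlapped, and the log2 fold change of 0.38 ± 0.20 did not pass (edgeR, adjusted p = 0.140, unadjusted 95% interval -0.014 to 0.78).

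Set directly against each other, BMP2 and E2 differed in the 2 abundant genes, which were both lower with BMP2. Alas2 averaged 9.90 ± 0.610 CPM with BMP2 and 13.4 ± 0.855 CPM with E2 (SD, n = 3 each). Its log2 fold change was -0.43 ± 0.074 (edgeR, adjusted p = 4.4e-07). Slc4a1 averaged 8.46 ± 0.532 CPM with BMP2 and 11.4 ± 0.840 CPM with E2. Its log2 fold change was -0.43 ± 0.080 (edgeR, adjusted p = 3.9e-06). So 2 of the 5 were called lower, and 0 higher by edgeR, by DESeq2 and at an unadjusted p under 0.05. Over all genes tested, 14.1% were called higher, 14% lower and 28.2% in either direction. Without overlap between libraries, 2 genes were lower with BMP2, Alas2 and Slc4a1, and 1 was higher, Klf1, where 19.8% of all genes tested stood wholly above, 19.8% wholly below and 39.6% apart in either direction.

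The rare genes did not pass the test between BMP2 and E2. The log2 fold changes were 0.15 ± 0.21 for Kel, 0.17 ± 0.21 for Klf1 and 0.26 ± 0.18 for Hemgn (edgeR, adjusted p = 0.661, 0.597 and 0.302). Their unadjusted 95% intervals were -0.27 to 0.56 for Kel, -0.24 to 0.58 for Klf1 and -0.10 to 0.62 for Hemgn.

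**Figure D2:**
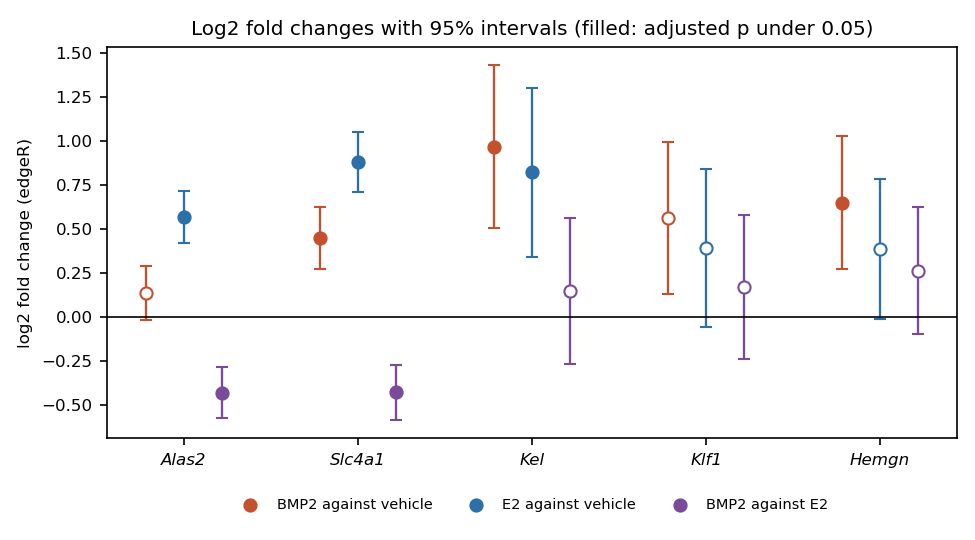
Log2 fold changes (y axis, edgeR) of the 5 genes in the 3 comparisons (colours), with unadjusted 95% intervals as bars and filled points where the adjusted p was under 0.05. The values with BMP2 and with E2 against vehicle, which share the vehicle libraries, run from 0.13 to 0.97, and Alas2 and Slc4a1 are both at -0.43 for BMP2 against E2.

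Other red cell genes were taken from 5 lists with 78 names that include the 5 genes. These names matched 75 genes of the tables, as Hbb-bs and Beta-s name the same gene, and 66 passed the filter. Many of the 66, such as Alad, Tfrc and Prdx2, are expressed in most cells. With BMP2 against vehicle, 12 rose, 3 fell and 51 missed the threshold, or 22.7% called, against 13.7% of all genes. With E2 against vehicle, 19 rose, 9 fell and 38 missed it, or 42.4% called, against 32.3%. Of the 61 tested genes other than the 5, 9 rose and 3 fell with BMP2, or 19.7% called. With E2, 16 of these rose and 9 fell, or 41.0% called.

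Genes of the membrane and its skeleton were called in 1 direction against vehicle. This list includes Slc4a1 and Kel, which rose with both treatments and are counted again here. Of 19 tested, 7 rose with BMP2, or 36.8% called, against 13.7% of all genes. The median log2 fold change was 0.21 beside -0.0015 over all genes. With E2, 10 rose, or 52.6% called, against 32.3%, with a median of 0.30 beside -0.0026. In both, the number that fell was 0 by edgeR, by DESeq2 and at an unadjusted p under 0.05. Add2, a β-adducin gene of the skeleton, had 14.1, 14.4 and 15.2 CPM with BMP2 and 15.8, 15.1 and 14.1 CPM with E2, against 9.27, 9.43 and 8.81 CPM with vehicle. Its log2 fold changes were 0.67 ± 0.071 with BMP2 and 0.71 ± 0.072 with E2 (edgeR, adjusted p = 5.2e-14 and 3.8e-16). Ermap, a membrane protein gene that in humans carries the Scianna antigens, rose by 0.80 ± 0.18 with BMP2 and 0.69 ± 0.19 with E2 on the log2 scale.

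Xk, whose product is joined to KEL, rose by 0.23 with BMP2 and 0.19 with E2 on the log2 scale. Both calls were lost without vehicle replicate 2 (edgeR, adjusted p = 0.0715 and 0.109), and that with E2 also without E2 replicate 2 (0.0957). Epb42 (protein 4.2), Gypc (glycophorin C) and Tmcc2 were called with E2, at 0.57, 0.17 and 0.23, and had 0.25, 0.015 and 0.074 with BMP2, which did not pass. Of these, the call of Epb42 did not hold without vehicle replicate 1 (adjusted p = 0.0534) and Gypc without vehicle replicate 2 (0.0557). Other parts of the skeleton did not pass in either comparison, such as Sptb, the β-spectrin gene, with 10.7 ± 0.721 CPM with BMP2, 10.6 ± 0.782 CPM with E2 and 11.7 ± 0.617 CPM with vehicle.

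Of 15 genes of haem synthesis and iron supply tested, 1 rose with BMP2, Tfrc, the transferrin receptor gene (0.12 ± 0.020 on the log2 scale). That is 6.67% called, against 13.7% of all genes. The number that fell with BMP2 was 0 by edgeR and by DESeq2, and 3 at an unadjusted p under 0.05. With E2, 3 rose and 3 fell, or 40.0% called, near the 32.3% of all genes. The genes that rose with E2 were Alas2, Alad, the enzyme that follows ALAS2 (0.43 ± 0.021), and Slc25a37, the mitochondrial iron importer mitoferrin-1 (0.18 ± 0.044). Alad had 195 CPM with BMP2 and 273 CPM with E2, against 203 CPM with vehicle, and did not pass with BMP2 (edgeR, adjusted p = 0.0591). The genes that fell with E2 were Uros (-0.18), Urod (-0.11) and Slc25a38 (-0.13), the first 2 being later enzymes of the pathway. Without vehicle replicate 1, Uros and Slc25a38 did not pass (adjusted p = 0.0894 and 0.137), nor without E2 replicate 2 (0.0711 and 0.188). Slc25a38 did not pass without E2 replicate 3 (0.0878) or with DESeq2 (0.110) either.

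Among 14 regulators, Hemgn was the 1 called with BMP2, or 7.14%, against 13.7% of all genes, and DESeq2 called 0. With E2, 1 rose and 2 fell, or 21.4% called, against 32.3% of all genes. Lmo2, whose product bridges factors in the GATA1 complex, rose with E2 (0.37 ± 0.091). Gata1 fell to 3.56 ± 0.340 CPM with E2, against 5.37 ± 0.0358 CPM with vehicle (SD, n = 3 each), a log2 fold change of -0.59 ± 0.11 (edgeR, adjusted p = 8.1e-06). Zfpm1, which encodes the GATA1 cofactor FOG1, fell as well (-0.22 ± 0.064). With BMP2, Gata1 had 6.14 ± 0.534 CPM and did not pass (0.19 ± 0.10, adjusted p = 0.224). Mast cells and megakaryocytes use GATA1 too, and the 9 mast cell markers found had summed levels of 122 to 123 CPM with BMP2, 64.9 to 68.6 CPM with E2 and 84.5 to 85.7 CPM with vehicle. Their part in the level of Gata1 was not tested.

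Of 5 globin genes tested, the number that rose with BMP2 was 0 by edgeR, by DESeq2 and at an unadjusted p under 0.05. Beta-s had 88.1 ± 2.32 CPM with BMP2 and 107 ± 1.15 CPM with E2, against 91.8 ± 2.78 CPM with vehicle. Its log2 fold change was -0.058 ± 0.029 with BMP2, which did not pass (edgeR, adjusted p = 0.186), and 0.22 ± 0.029 with E2, which did (adjusted p = 1.8e-11). Hbb-y, an embryonic β-like globin gene, had 9.13 ± 0.633 CPM with BMP2 and 12.8 ± 0.771 CPM with E2, against 12.1 ± 0.734 CPM with vehicle. It fell with BMP2 (-0.41 ± 0.075, adjusted p = 1.2e-05) and did not pass with E2 (0.078 ± 0.072, adjusted p = 0.451). Hba-x and Hbb-bh1 had log2 fold changes of -0.16 and 0.27 with BMP2 and did not pass (edgeR, adjusted p = 0.718 and 0.532). Of the globin genes, Hbb-y was thus the 1 called with BMP2, and Beta-s and Hbb-b1 rose with E2. These are 20.0% and 40.0% called, against 13.7% and 32.3% of all genes. Hbb-b1 (0.79) was lost without vehicle replicate 3 (adjusted p = 0.0516). Hba-a1 and Hba-a2, near-identical copies of adult α-globin, are listed at 0 in all libraries. Alignments marked as not unique made up 23.9% to 24.4% of each library and were assigned to no gene, so values of near-identical globin copies are uncertain.

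**Figure D3:**
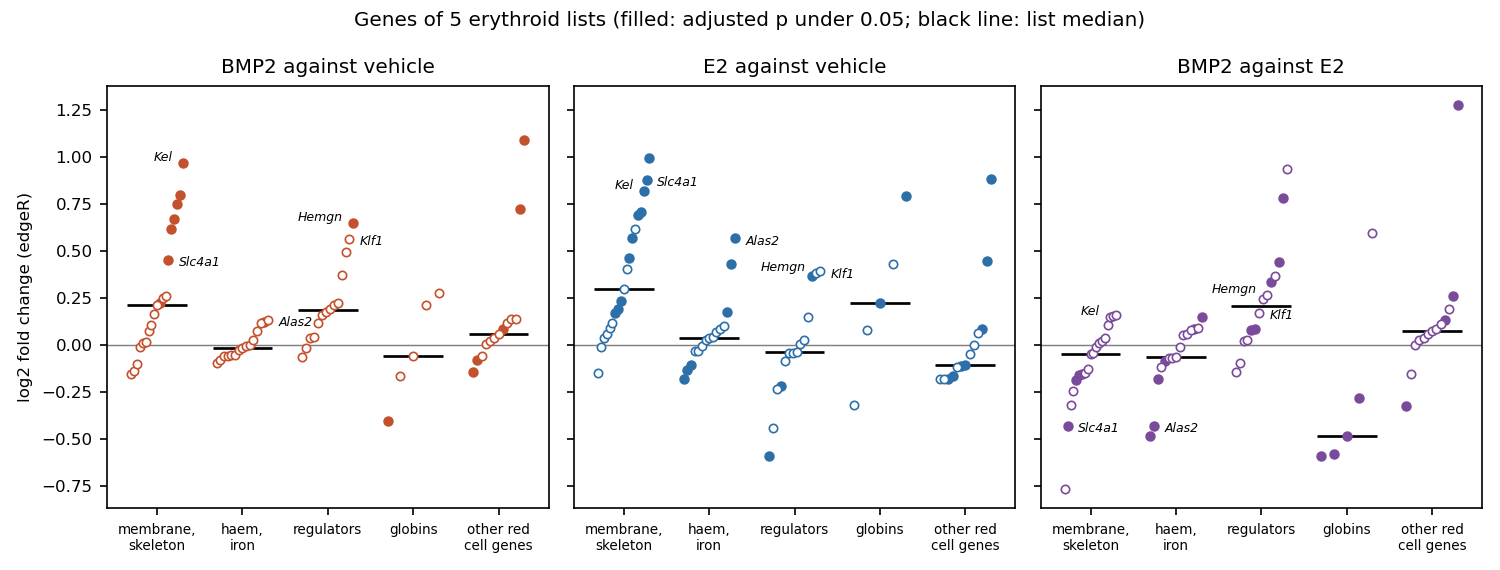
Log2 fold changes (y axis, edgeR) of the tested genes of 5 erythroid lists (x axis) in the 3 comparisons (panels), 1 point a gene, filled where the adjusted p was under 0.05, with the list median as a black line. The median of the membrane list is 0.21 with BMP2 and 0.30 with E2 against vehicle, and that of the globin list -0.058 and 0.22.

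Of 13 other red cell genes, 3 rose and 2 fell with BMP2, or 38.5% called, against 13.7% of all genes. Those that rose were Trim10 (0.72), Cldn13 (1.09) and Bnip3l (0.082), and those that fell Blvrb (-0.15) and Prdx2 (-0.080), all log2 fold changes. Trim10 encodes a TRIM protein of maturing red cells. Cldn13, a claudin gene of mouse red cell precursors, had 101 counts over the BMP2 libraries and 38 over the E2 libraries, against 45 over the vehicle libraries. Its call with BMP2 (adjusted p = 0.00560) was lost without BMP2 replicate 3 (0.0698) or vehicle replicate 3 (0.110). Blvrb was lost with DESeq2 (adjusted p = 0.164), without any 1 BMP2 library, and without vehicle replicate 1 or 2 (0.0535 to 0.320 over these libraries), and Prdx2 without vehicle replicate 1 (0.0546). With E2, 53.8% were called, against 32.3% of all genes. Of these, 3 rose, among them Trim10 (0.88) and Bnip3l (0.083), and 4 fell, Blvrb (-0.18), Prdx2 (-0.11), Tspan33 (-0.17) and Ube2l6 (-0.11). Of those that fell, Blvrb was lost without vehicle replicate 2 (0.0766) or E2 replicate 3 (0.119). Tspan33 was lost without vehicle replicate 2 (0.199), E2 replicate 1 (0.0898) or E2 replicate 3 (0.0700), and with DESeq2 (0.0854).

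Between BMP2 and E2, 10 of the 66 erythroid genes were higher with BMP2 and 13 lower, or 34.8% called, against 28.2% of all genes. DESeq2 called 14. Gata1 (0.78 ± 0.11) and Zfpm1 (0.34 ± 0.062) were among the higher ones. Beta-s (-0.28 ± 0.029), Hbb-y (-0.48 ± 0.075) and Alad (-0.49 ± 0.021) were among the lower ones.

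Each gene was also set against Beta-s in its own library, as a ratio within red cell transcripts. Slc4a1 had 89.1, 104 and 95.3 counts per 1000 counts of Beta-s with BMP2 and 107, 98.9 and 112 with E2, against 76.6, 59.6 and 65.7 with vehicle. Alas2 had 107, 107 and 123 with BMP2 and 123, 118 and 132 with E2, against 97.0, 104 and 94.2 with vehicle. Kel averaged 16.7 ± 3.96 with BMP2 and 12.3 ± 2.00 with E2, against 8.20 ± 1.19 with vehicle (SD, n = 3 each). For these 3 genes every treated library was above every vehicle library, though in CPM Alas2 overlapped between BMP2 and vehicle. Klf1 averaged 17.2 ± 0.476 with BMP2 and 12.6 ± 0.594 with E2, against 11.1 ± 3.67 with vehicle. Hemgn averaged 24.0 ± 4.85 with BMP2 and 16.3 ± 3.11 with E2, against 14.5 ± 4.65 with vehicle. Both had all BMP2 libraries above the vehicle libraries, and overlapped between E2 and vehicle. The share of all genes whose ratios to Beta-s stand apart in this way was not computed. An exact two-sided permutation test of 3 libraries against 3 cannot go below p = 0.1, so the ratios are a description.

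**Figure D4:**
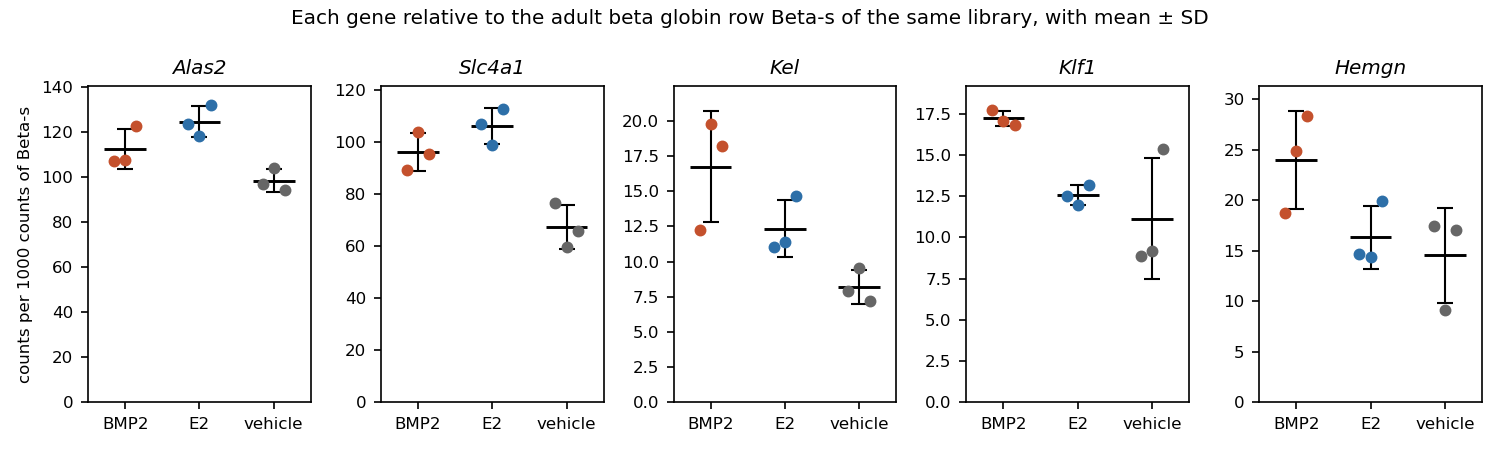
Counts of each of the 5 genes per 1000 counts of Beta-s in the same library (y axes, from 0), with points for the 3 libraries each of BMP2, E2 and vehicle and bars for the mean and SD. Slc4a1 averages 96.0 with BMP2 and 106 with E2, against 67.3 with vehicle.

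Markers of other blood and vessel cells were set beside the 5 genes, whose summed level was 22.2 to 24.3 CPM with BMP2, 27.0 to 31.5 CPM with E2 and 17.6 to 18.9 CPM with vehicle. For the marker counts below, the share of all genes called against vehicle was 13.7% with BMP2 and 32.3% with E2. The 10 endothelial markers summed to 243 to 249.6 CPM with BMP2, 243 to 255 CPM with E2 and 240.3 to 247 CPM with vehicle. Kdr alone averaged 106 CPM with BMP2, 87.9 CPM with E2 and 110 CPM with vehicle, so it weighs heavily in these sums. With BMP2, Cdh5 (0.19) and Tie1 (0.20) rose and Plvap (-1.01) fell, of which Tie1 was lost with DESeq2 (adjusted p = 0.121) and without BMP2 replicate 1 or 2 or vehicle replicate 1 or 3 (0.0514 to 0.219 over these libraries). Cdh5 was lost without vehicle replicate 1 (adjusted p = 0.0597). Plvap was lost without BMP2 replicate 2 or 3 or vehicle replicate 3 (0.0894 to 0.196), and DESeq2 gave it no adjusted p. With E2, 7 rose, among them Pecam1 (0.31 ± 0.040) and Emcn (0.44 ± 0.074), and Kdr, a VEGF receptor gene, fell (-0.32 ± 0.029). Of those that rose, Cldn5 and Esam were lost with DESeq2 (adjusted p = 0.129 and 0.0964). Tek, Cldn5 and Esam were also lost when some single libraries were left out. Of 7 mast cell markers tested, 5 rose with BMP2, Cma1 (1.03), Cpa3 (0.94), Tpsb2 (1.11), Tpsab1 (1.01) and Hdc (0.34). With E2, Cma1 (-0.71), Cpa3 (-0.62), Tpsb2 (-0.83) and Hdc (-0.36) fell and Gata2 (0.23) rose. The call of Gata2 was lost with DESeq2 (adjusted p = 0.0644) and without vehicle replicate 1 (0.109) or E2 replicate 1 (0.111).

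The 10 macrophage markers summed to 89.0 to 90.4 CPM with BMP2, 81.8 to 82.6 CPM with E2 and 94.7 to 96.9 CPM with vehicle. With BMP2, 0 of 9 tested were called by edgeR or DESeq2, and 2 were lower at an unadjusted p under 0.05. With E2, 5 fell, Cd68 (-0.42), Mrc1 (-0.40), C1qa (-0.26), C1qb (-0.32) and Cx3cr1 (-0.38). The 10 neutrophil markers summed to 49.9 to 50.7 CPM with BMP2, 57.6 to 63.1 CPM with E2 and 78.9 to 82.7 CPM with vehicle. With BMP2, Mpo, Elane and Prtn3 rose, Mpo to 2.22 CPM with BMP2 against 0.388 CPM with vehicle, and 6 fell, among them Ltf (-2.25) and Ngp (-2.03), and with E2 6 fell. DESeq2 gave no adjusted p for Mpo and Elane with BMP2 against vehicle, and called Prtn3. Of those that fell with E2, Elane was lost with DESeq2 (adjusted p = 0.0820) and under other alternatives.

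The 10 megakaryocyte and platelet markers were rare, with sums of 8.11 to 9.72 CPM with BMP2, 6.06 to 7.46 CPM with E2 and 6.61 to 8.36 CPM with vehicle, and 5 passed the filter. Ppbp, a platelet chemokine gene, was the 1 called with BMP2, with 74 counts over the BMP2 libraries and 3 over the E2 libraries, against 8 over the vehicle libraries. DESeq2 gave it no adjusted p in this comparison. Gp6, the platelet collagen receptor gene, had 3 counts over the BMP2 libraries, 0 over the E2 libraries and 1 over the vehicle libraries. The part of these other cells in the values of the 5 genes was not tested.

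**Figure D5:**
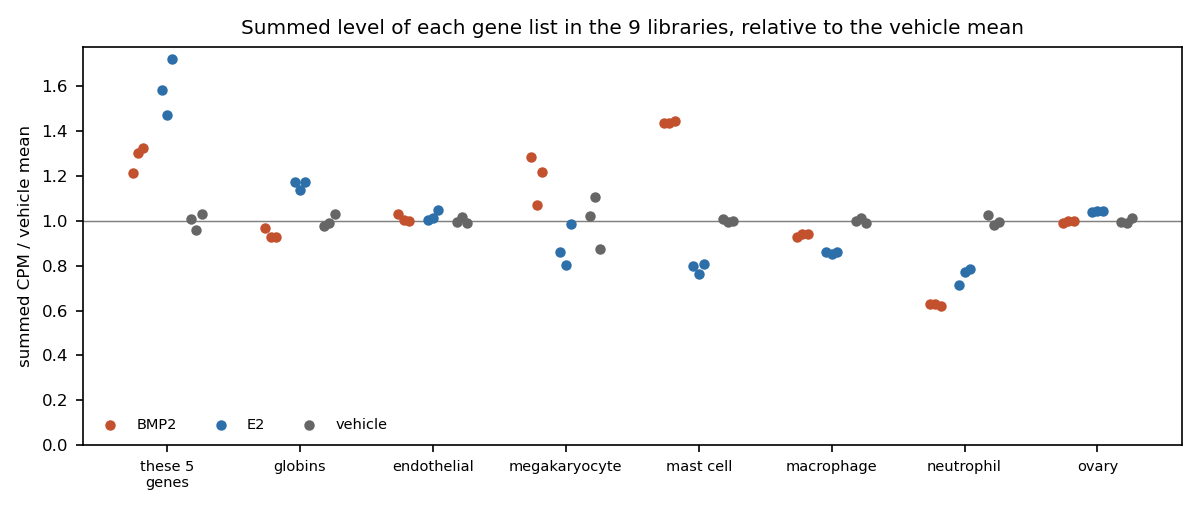
Summed CPM of each marker list divided by its vehicle mean (y axis, from 0) in the 9 libraries, coloured by group. The sums behind the points are 22.2 to 24.3 CPM with BMP2 and 27.0 to 31.5 CPM with E2, against 17.6 to 18.9 CPM with vehicle, for the 5 genes, and the endothelial sums of all groups lie between 240.3 and 255 CPM. Kdr, with group means of 87.9 to 110 CPM, weighs heavily in the endothelial sums.

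Genes with the most similar profile were sought by Pearson correlation of log2 CPM over the 9 libraries, among 14386 genes with a mean of at least 1 CPM. Libraries of a group share their treatment, so these values describe the order of groups and carry no p. Closest to Alas2 were Specc1l, Pknox2 and Cntn1 (r of 0.992, 0.989 and 0.988). Closest to Slc4a1 were Unc93b1, Gja1 and Nsun2 (r of 0.989, 0.986 and 0.980). For Kel they were Tdrd5, Trim71 and Clstn2 (r of 0.955, 0.940 and 0.935), for Klf1 Spin1 and Ncoa4 (r of 0.970 and 0.956), and for Hemgn Anxa7, Dtwd2 and Sclt1 (r of 0.972, 0.955 and 0.924). For the 5 genes summed they were Itgb3, Raph1 and Rnf144b (r of 0.989, 0.984 and 0.983). None of these genes is in the erythroid lists. The closest gene of those lists was Alad for Alas2, at rank 546 (r of 0.896). It was Add2 for Kel, at rank 87 (0.863), Tfrc for Klf1, at rank 73 (0.838), and Xk for Hemgn, at rank 94 (0.810).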

How the data were processed

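Raw read counts per gene were used as deposited, with 1 table per library of 23420 genes and 5 summary rows. Per the submitters' processing notes, the authors used TopHat2, HTSeq and DESeq2 with mm10. No source used here gives versions, the annotation or the strand setting. The summary rows held 38.2% to 39.7% of a table's total and were left out. Titles start with B2, E2 or C. The series title explains E2, and B2 and C were assigned to BMP2 and vehicle as the conditions that remained.

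Genes passing filterByExpr (minimum count 10, minimum total 15; 16360 genes) went into edgeR 4.0.16 (R 4.3.3). Library sizes were scaled by TMM, and the robust quasi-likelihood model had 1 mean for each of the 3 groups over all 9 libraries, leaving 6 residual degrees of freedom. P-values were adjusted by Benjamini and Hochberg over all genes tested, with calls under 0.05. A standard error is the absolute log2 fold change over the root of F. Counting error without molecular identifiers is a lower limit of technical error. The fit was tested on simulated data.

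The 5 genes, the lists and the tests were chosen with earlier results of these data known. Named from each list were the 4 genes with the smallest p and genes counted in groups of 5 or fewer. Others, such as Ermap, Xk, Sptb and Gp6, were named after their values were seen. Among listed names, 4 were matched through older symbols in the RefSeq table, and Hbb-bt, Ahsp and Mcpt5 were not analysed here. Results of a few other genes that these rules would name are not reported here. Alternatives were DESeq2 1.42.0, other scalings and filters, fits of only the groups compared, a replicate block, and leaving out each library.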

Additional observations from a re-analysis of the deposited data

How the results depend on the processing

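All 15 log2 fold changes of the 5 genes kept their direction under every alternative run, and 249 of 255 recomputed values kept their side of the threshold. DESeq2 called 1414 genes for BMP2 against vehicle, where edgeR called 2239, and 14 erythroid genes for BMP2 against E2, where edgeR called 23. With DESeq2, Hemgn had a log2 fold change of 0.65 for BMP2 against vehicle and did not pass (adjusted p = 0.0812). The cause was not tested. Leaving out 1 library at a time gave log2 fold changes of 0.42 to 0.80 for Hemgn and 0.39 to 0.89 for Klf1 with BMP2, and 0.22 to 0.72 for Klf1 and 0.67 to 0.94 for Kel with E2. The number of the 5 genes called then ran from 2 to 4 with BMP2 and 2 to 4 with E2, and was 2 each time between them. The number of erythroid genes called ran from 12 to 16, 25 to 30 and 16 to 23, in the same order. Of the other red cell, blood and vessel genes of the lists that edgeR called, 7 of 30 with BMP2, 13 of 49 with E2 and 16 of 47 between BMP2 and E2 were lost under at least 1 alternative, and 0 reversed. DESeq2 gave no adjusted p for 5 of the 30 with BMP2, which are not counted as lost there. Deviations of same-numbered libraries correlated at -0.0089 to 0.071 over 9 pairs, and those of unlike numbers at -0.048 to 0.050 over 18 pairs. These ranges overlap and do not decide whether the numbers pair libraries, and the main fit has no pairing. With the replicate block 2512, 5512 and 4875 genes were called for BMP2 against vehicle, E2 against vehicle and BMP2 against E2. The main fit called fewer, 2239, 5278 and 4607. Of the 5 genes, 3, 3 and 2 were called with the block. Other scalings left the median of all genes within 0.013 of 0 on the log2 scale. Depth limits Kel, Klf1 and Hemgn most, at 22 to 84 counts per library.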
